A study of Homo sapiens with 4 samples.

Results

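The genes described here build the nuclear pore and carry cargo through it, and they were chosen by name alone. Gene names had to begin with NUP, KPNA, KPNB, IPO, XPO or TNPO followed by a digit, to begin with XPOT, or to be RAN, RANBP1, RANBP2 or RANGAP1. This rule found 49 of the 17825 genes listed. They were 20 pore genes, 17 import carrier genes, 6 export carrier genes, 4 genes of the Ran cycle and 2 noncoding genes, IPO9-AS1 and XPOTP1, whose names match. The 47 protein-coding members passed the filter on low counts and were tested. The noncoding pair, at 1 to 6 counts per library, did not pass it.

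RNA was sequenced from KYSE150, an established line of human esophageal squamous cell carcinoma, grown in serum-containing medium. The control group holds 2 libraries whose genotype is labelled a negative control, and the other group holds 2 libraries made after transfection of an siRNA that targets CEBPG, called siRNA1 in the file headers. Separate cultures are not stated in the labels, and the p-values therefore reflect only how far these libraries differ within a group, a spread that may be technical. The design text calls the profiles retinal, and the comparison asks which transcripts differ once CEBPG, a basic leucine zipper transcription factor, is lowered. With 1 siRNA, effects of lower CEBPG and other effects of that siRNA cannot be told apart.

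The nuclear pore is a channel through the nuclear envelope, with stacked rings of scaffold proteins, a mesh of phenylalanine-glycine repeat proteins in its middle, filaments toward the cytoplasm and a basket toward the nucleus. Proteins with a nuclear localisation signal are carried in by importins, and exportins carry proteins and RNAs out. The GTPase Ran sets the direction, because its GTP form, made on chromatin, releases cargo from importins and loads cargo onto exportins, and the GTP is hydrolysed once the carrier reaches the cytoplasm.

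Library totals ran from 15432762 to 15536501 counts. CEBPG stood at 52.8 and 50.2 CPM (a read count divided by the TMM-corrected size of its library) in controls and at 13.4 and 12.8 CPM in siRNA libraries, a log2 fold change of -1.98 (SE 0.077, adjusted p = 1.82e-11 by edgeR). The siRNA libraries were both below the controls. All 7 squamous markers examined were listed, with a summed level of 1012 to 1045 CPM in controls and 932 to 985 CPM in siRNA libraries, and 3 of them fell while 3 rose. KRT5, the leading one, had 494 to 594 CPM over the 4 libraries. Of markers of other cell types, PTPRC, CD68, PECAM1, DCN and CRX were not listed, CD3E stayed at or under 0.63 CPM, and COL1A1 lay between 9.58 and 12.9 CPM. CDH5 rose from 7.27 and 7.28 to 12.4 and 12.5 CPM and ARR3, a retina marker, from 0.40 and 0.33 to 1.44 and 1.001 CPM. The part of these marker differences in the results was not tested. In bulk samples, fewer cells of a kind and less RNA per cell cannot be told apart.

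The sequences shown first are those of the members with the 7-base word GGCTATT in their transcript, because the largest falls among the members sit in this group. An earlier analysis of these same libraries singled the word out for its relation to falls, so its presence here is no independent evidence. Coordinates are those of the word in GRCh38, from 1 GENCODE 29 transcript per gene, and each stretch has 29 bases read 5′ to 3′ on the transcript, with the word in capitals. The word lay in the coding sequence of XPOT (chr12:64419046-64419052, plus strand, exon 6), of KPNA2 (chr17:68043252-68043258, plus strand, exon 7), of RAN (chr12:130873113-130873119, plus strand, exon 4) and of TNPO3 (chr7:128986903-128986909, minus strand, exon 12). In IPO7 it occurred in the coding sequence (chr11:9440589-9440595, plus strand, exon 23) and again in the 3' UTR (chr11:9446222-9446228, exon 25). In NUP37 it occurred in the 5' UTR (chr12:102118554-102118560, minus strand, exon 2) and in the coding sequence (chr12:102077441-102077447, exon 7). KPNA5 had it in the 3' UTR (chr6:116733679-116733685, plus strand, exon 14), and the targeted gene CEBPG, which is no member, also had it in the 3' UTR (chr19:33379810-33379816, plus strand, exon 2). The siRNA sequence is not stated in the labels, so none of these sites could be set against it.
XPOT coding: cgaatcctcatGGCTATTgattcagagtt
IPO7 coding: ctgctctggaaGGCTATTccacaatcatt
IPO7 3' UTR: gaacttaattcGGCTATTatgtcttgatt
KPNA2 coding: gatacctgctgGGCTATTtcctaccttac
NUP37 5' UTR: gtccagtagaaGGCTATTtaattttcaca
NUP37 coding: ttggcccaacaGGCTATTttatctcttga
RAN coding: gactgagagatGGCTATTatatccaagcc
TNPO3 coding: accctgtgttgGGCTATTtgatgaaaggc
KPNA5 3' UTR: agttatacgtaGGCTATTtatgtgtccaa
CEBPG 3' UTR: gacccattggaGGCTATTttctgggatca

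More pore and transport genes were lower than higher in the siRNA cells. Of the 47 tested, 27 fell, 5 rose and 15 did not pass the threshold, an edgeR adjusted p under 0.05. Over all 14207 genes tested, 28.8% fell and 25.5% rose, against 57.4% and 10.6% of the members. The median log2 fold change of the members was -0.24 and that of all genes 0.005, and single members ran from -1.09 to 0.40. Most of the changes were small. A fall of at least 1.5-fold was found for 5 members, XPOT, IPO7, KPNA2, NUP37 and RAN, and a rise of that size for none, where 8.26% of all genes fell and 9.07% rose by as much. In each of the 27 members that fell and the 5 that rose, the control and siRNA libraries did not overlap, which also held for 4097 of the 4098 genes that fell and 3614 of the 3617 that rose in the whole table. The authors' deposited table, at an adjusted p under 0.05, has 25 members lower and 4 higher, beside 18.0% lower and 12.4% higher among all genes it lists. The alternative fit with DESeq2 made the same numbers of calls, so the 2 are not separate results. That fit gave an adjusted p to 13332 genes, of which 24.1% fell and 16.6% rose.

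The split depended in part on the scaling. With total counts alone, which puts the all-gene median at 0.10 on the log2 scale, 23 members fell and 10 rose, while 21.7% of all genes fell and 34.8% rose. Calls for 21 of the 27 falls and for 2 of the 5 rises, KPNA6 and IPO8, were made in all 12 alternative fits, as were calls for 2286 of all 4098 genes that fell (55.8%) and 1426 of all 3617 that rose (39.4%).

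**Figure D1:**
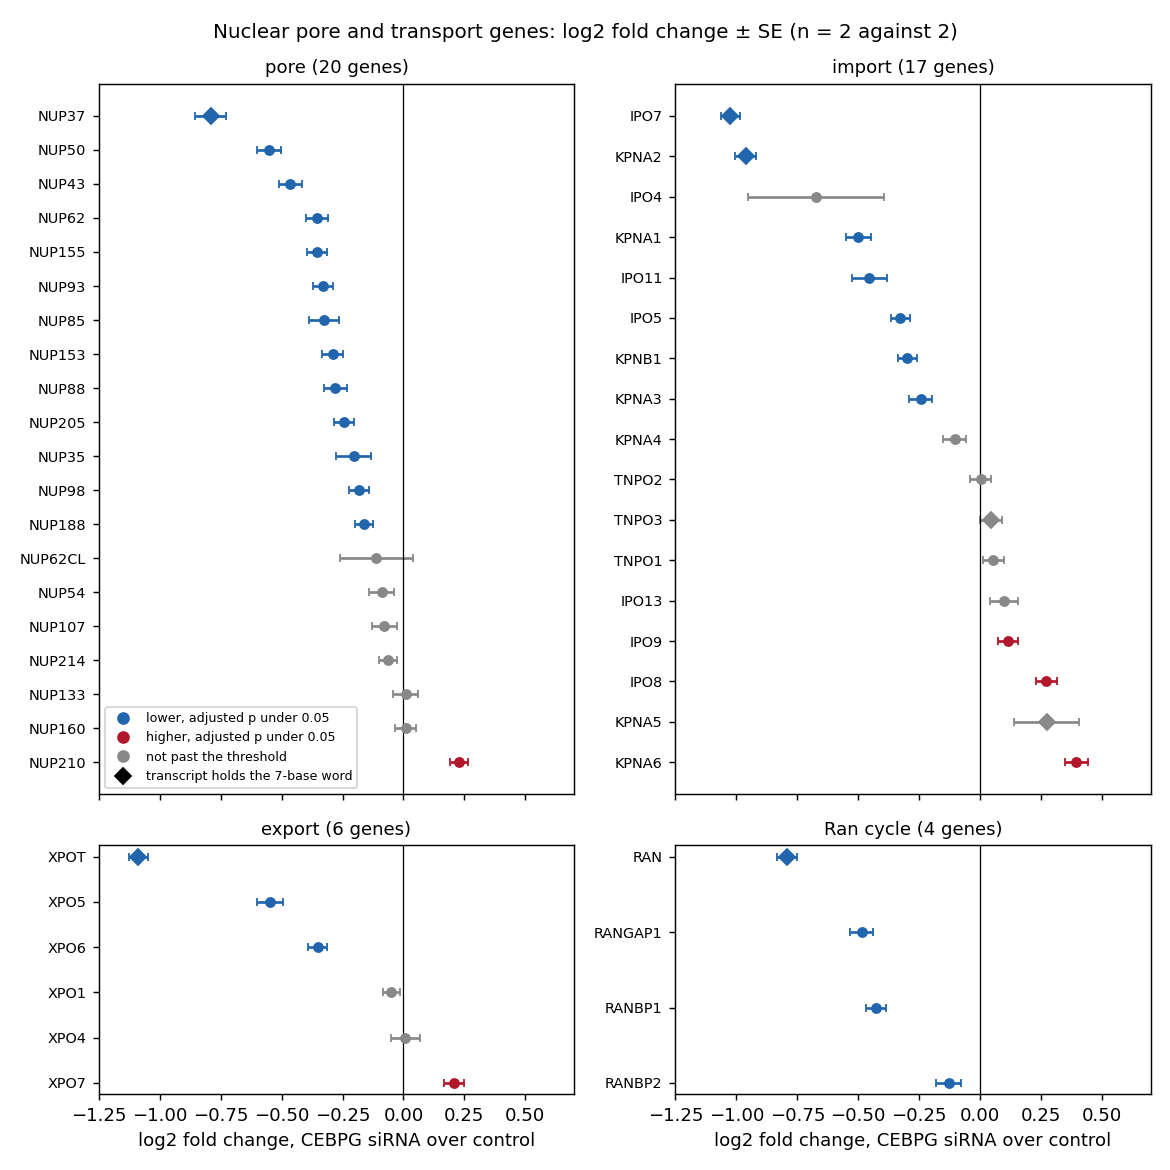
Log2 fold change (CEBPG siRNA over control) of the 47 tested members, in 4 panels by class; points are estimates from 2 against 2 libraries, bars are 1 SE, blue and red mark genes that passed the threshold and diamonds mark transcripts with the 7-base word. The Ran cycle genes all lie left of 0, the pore genes run from -0.79 to 0.23, and the import panel is the only one with several red points.

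All 4 genes of the Ran cycle fell, where 28.8% of all genes tested did, with a median log2 fold change of -0.46. RAN, the GTPase itself, measured 320 and 334 CPM in controls and 185 and 194 CPM in siRNA libraries. The siRNA libraries lay far below both controls, at 189 ± 6.34 against 327 ± 10.3 CPM (SD, n = 2). This was a 1.73-fold fall, with a log2 fold change of -0.79 (SE 0.041, adjusted p = 5.05e-10 by edgeR). GENCODE 29 lists 9 pseudogenes of RAN, 3 of KPNA2 and 2 of IPO7, and the sources used here do not say how reads shared with such copies were counted. RANGAP1, which switches on GTP hydrolysis by Ran at the cytoplasmic face, stood at 208 and 210 CPM in controls and at 142 and 156 CPM in siRNA libraries. Both siRNA libraries were lower, although they differed from each other more than the controls did (log2 fold change -0.48, SE 0.047, adjusted p = 5.12e-07 by edgeR). RANBP1, a cofactor that frees Ran from carriers, had 240 and 239 CPM against 173 and 183 CPM. Its groups were apart, with a log2 fold change of -0.43 (SE 0.041, adjusted p = 4.66e-07 by edgeR). RANBP2, the large protein of the cytoplasmic filaments, measured 138 and 130 CPM in controls and 127 and 118 CPM in siRNA libraries. The gap between its groups was smaller than the spread within either of them. RANBP2 also has near-identical relatives, the RGPD genes, so its count is uncertain. Its log2 fold change was -0.13 (SE 0.05, adjusted p = 0.0391 by edgeR), a call lost in 8 of 12 alternative fits, with adjusted p from 0.0029 to 0.63.

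The import carriers moved in both directions. Of 17 genes, 7 fell, 3 rose and 7 did not pass, with a median log2 fold change of -0.10. The shares that fell and rose were 41.2% and 17.6%, against 28.8% and 25.5% of all genes tested. IPO7, an importin known to carry ribosomal proteins and histone H1, measured 525 and 504 CPM in controls and 257 and 248 CPM in siRNA libraries. Both siRNA libraries were at about 1 part in 2 of the control level, a 2.04-fold fall from 514 ± 15 to 253 ± 6.74 CPM (SD, n = 2). The log2 fold change was -1.03 (SE 0.038, adjusted p = 1.39e-11 by edgeR). KPNA2, the importin alpha of proliferating cells, had 222 and 215 CPM in controls against 113 and 111 CPM. Its libraries agreed closely within each group, and it fell 1.95-fold (log2 fold change -0.96, SE 0.042, adjusted p = 6.71e-11 by edgeR). KPNA1, another importin alpha, followed with 81.3 and 79.5 CPM in controls and 57.1 and 56.6 CPM in siRNA libraries (log2 fold change -0.50, SE 0.051, adjusted p = 8.66e-07 by edgeR), with no overlap. Of its transcript, 20.2% overlaps a gene on the opposite strand, and whether counting used strand is not stated in the sources used here. KPNB1, the importin beta that takes importin alpha and its cargo through the pore, changed less. It had 535 and 499.5 CPM in controls and 421 and 420 CPM in siRNA libraries, so that the controls differed from each other more than the siRNA libraries did. The groups remained apart, with a log2 fold change of -0.30 (SE 0.039, adjusted p = 1.08e-05 by edgeR). The other falls were in IPO11 (-0.46), IPO5 (-0.33) and KPNA3 (-0.24). KPNA4 (-0.10) did not pass, nor did it in 9 of 12 alternative fits.

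KPNA6, an importin alpha close in sequence to KPNA1, was the member that rose most. It measured 93.9 and 98.3 CPM in control libraries and 128 and 124 CPM in siRNA libraries, which were both higher. The rise was 1.32-fold (log2 fold change 0.40, SE 0.047, adjusted p = 3.75e-06 by edgeR). IPO8, the closest relative of IPO7, stood at 125 and 119 CPM in controls and 145 and 149 CPM in siRNA libraries. It rose, with separate groups and a log2 fold change of 0.27 (SE 0.045, adjusted p = 0.000102 by edgeR). IPO9, a carrier of histones H2A and H2B, went from 155 and 154 CPM to 170 and 165 CPM. Its log2 fold change of 0.12 (SE 0.041, adjusted p = 0.0269 by edgeR) lost its call in 8 of 12 alternative fits, with adjusted p from 0.00025 to 0.22. None of the 3 transportins, which carry RNA-binding proteins into the nucleus, passed the threshold, and their log2 fold changes ran from 0.00 to 0.05. This depended in part on the processing. TNPO1, TNPO2 and TNPO3 did not pass in 8, 10 and 10 of 12 alternative fits. TNPO2 was called lower in 2 of them, with the GC and length trend removed, and its log2 fold change reached -0.12. IPO13 (0.10) and KPNA5 (0.27) did not pass either, nor did they in 10 and 9 of 12 alternative fits. IPO4 had the lowest level of the import carriers, with 30 to 17 counts per library. Its log2 fold change of -0.67 (SE 0.28, adjusted p = 0.0539 by edgeR) missed the threshold, as it did in 10 of 12 alternative fits. Of the IPO4 transcript, 95.2% overlaps other genes on the same strand.

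**Figure D2:**
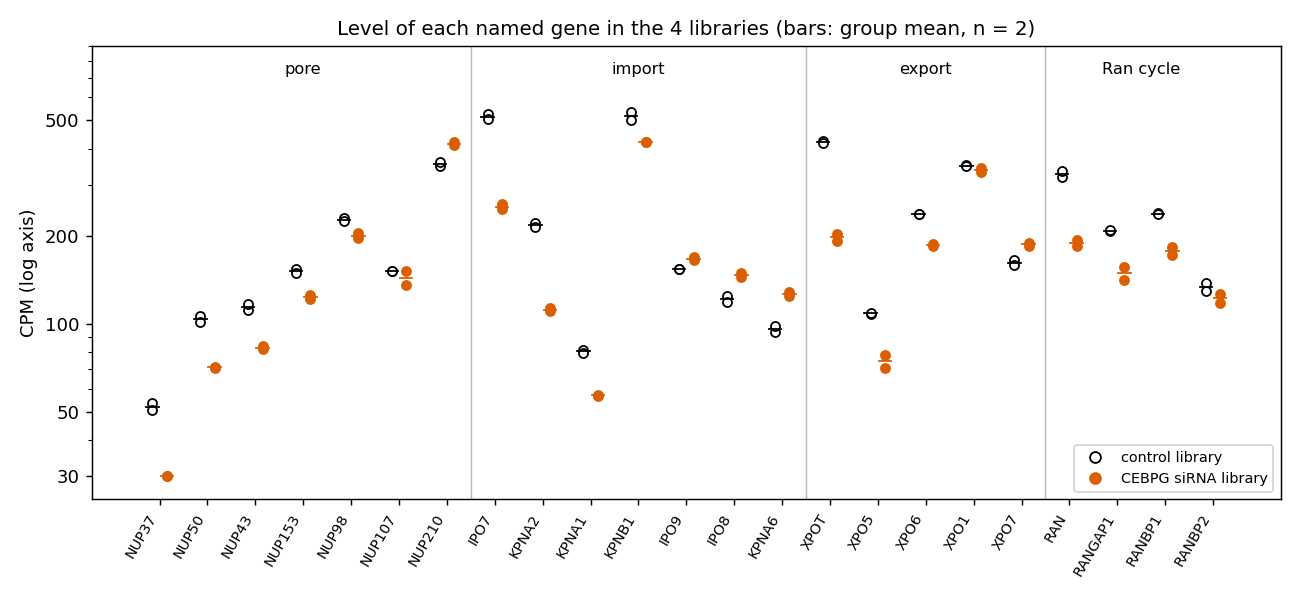
Level of the 23 named members in each of the 4 libraries, in CPM on a log axis, grouped by class; open circles are control libraries, filled circles CEBPG siRNA libraries, and bars the group mean (n = 2). XPOT, IPO7, KPNA2, NUP37 and RAN show the widest gaps, whereas XPO1 and NUP107 show groups that nearly touch or overlap.

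The falls and rises changed the make-up of the importin alpha genes. Levels of different genes are compared here per length, with the authors' deposited RPKM, which is scaled to library totals. KPNA2 made up 54.7% and 54.1% of the summed RPKM of the 6 importin alpha genes in control libraries and 39.2% and 39.3% in siRNA libraries. KPNA6 made up 9.48% and 10.1% in controls and 18.2% and 18.0% after the siRNA. The ratio of the 2 genes went from 5.78 and 5.36 in the controls to 2.16 and 2.18, while the sum over all 6 went from 124 and 122 to 95.2 and 92.6 RPKM. KPNA2 remained the most abundant importin alpha in every library. The ratio of IPO7 to IPO8 in RPKM was 3.96 and 3.99 in controls and 1.67 and 1.57 in siRNA libraries. These ratios say that the genes changed unequally and carry no test.

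**Figure D3:**
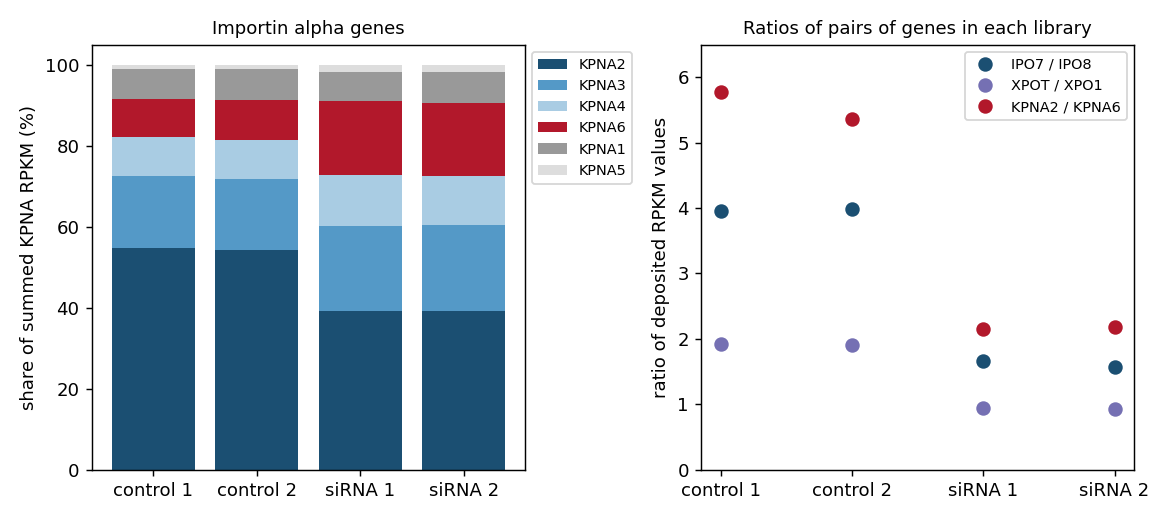
Make-up of importin alpha transcripts and ratios of pairs of carriers in each of the 4 libraries, from the authors' deposited RPKM; the left panel stacks each gene's share of the importin alpha sum in percent, and the right panel plots 3 ratios. KPNA2 shrank from 54.7% and 54.1% to 39.2% and 39.3% and every ratio is lower in both siRNA libraries.

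Among the export carriers, 3 of 6 fell, 1 rose and 2 did not pass, with a median log2 fold change of -0.20. XPOT, the exportin of mature tRNA, fell most of all members. It measured 426 and 417 CPM in controls and 203 and 193 CPM in siRNA libraries. The siRNA libraries were both under 1 part in 2 of either control, a 2.13-fold fall (log2 fold change -1.09, SE 0.039, adjusted p = 9.1e-12 by edgeR). The authors' deposited table gives -1.10 for XPOT and -1.03 for IPO7 on the log2 scale. A pseudogene, XPOTP1, is listed at 2 to 4 counts per library. XPO5, which exports precursor miRNAs, stood at 108 and 109 CPM in controls and 70.8 and 78.0 CPM in siRNA libraries. Its groups were apart, with a log2 fold change of -0.55 (SE 0.053, adjusted p = 4.77e-07 by edgeR). XPO6, the exportin of actin, had 239 and 238 CPM against 188 and 185 CPM. Both siRNA libraries were lower, by a smaller margin (log2 fold change -0.35, SE 0.039, adjusted p = 1.83e-06 by edgeR).

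XPO1, the general exportin for leucine-rich export signals, measured 351 and 348 CPM in controls and 344 and 332 CPM in siRNA libraries. The siRNA libraries were slightly lower without overlap, but the log2 fold change of -0.05 (SE 0.037, adjusted p = 0.278 by edgeR) missed the threshold, and it turned positive with upper-quartile factors (0.02) and with total counts alone (0.05). In RPKM, XPOT stood at 1.93 and 1.91 times XPO1 in the controls and at 0.938 and 0.926 times XPO1 in siRNA libraries, so the order of the 2 genes turned over. XPO7 had 166 and 159 CPM in controls and 190 and 185 CPM in siRNA libraries. XPO4 (0.01) did not pass. XPO7 was the export gene that rose, with a log2 fold change of 0.21 (SE 0.042, adjusted p = 0.000635 by edgeR), and without Control replicate 2 its adjusted p was 0.0606.

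The pore genes fell in larger number than the carriers but by small amounts. Of 20, 13 fell (65.0%, against 28.8% of all genes), 1 rose (5.0%, against 25.5%) and 6 did not pass. The median was -0.22 on the log2 scale, and NUP37 alone fell by 1.5-fold or more. NUP37, a subunit of the outer ring, measured 53.3 and 50.8 CPM in controls and 30.03 and 30.10 CPM in siRNA libraries. The siRNA libraries were nearly equal and far below the controls, a 1.73-fold fall (log2 fold change -0.79, SE 0.064, adjusted p = 6.24e-08 by edgeR). NUP43, a second subunit of the outer ring, had 112 and 117 CPM against 83.9 and 81.9 CPM (log2 fold change -0.46, SE 0.047, adjusted p = 8.56e-07 by edgeR), with no overlap. The outer ring did not move as a block. NUP85 fell (-0.33), a call lost in 1 of 12 alternative fits, while NUP133 and NUP160 both had a log2 fold change of 0.01 and did not pass. NUP160 also did not pass in 11 of 12 alternative fits. NUP107, which anchors the outer ring subunits, measured 151 and 152 CPM in controls and 152 and 136 CPM in siRNA libraries. Its groups overlapped because siRNA replicate 1 sat at the control level and siRNA replicate 2 below it. Its log2 fold change was -0.08 (SE 0.051, adjusted p = 0.212 by edgeR), with values of 0.02 under total counts alone and 0.002 without siCEBPG replicate 2, and an adjusted p of 0.0465 without siCEBPG replicate 1.

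All 5 inner ring genes fell, where 28.8% of all genes tested did, with a median log2 fold change of -0.24. Their values ran from -0.35 for NUP155 and -0.33 for NUP93 through -0.24 for NUP205 to -0.20 for NUP35 and -0.16 for NUP188. The call of NUP35 was lost in 9 of 12 alternative fits and that of NUP188 in 3. The nuclear basket genes fell as well. NUP50, which helps to free importin alpha at the basket, had 107 and 101 CPM in controls and 71.1 and 70.6 CPM in siRNA libraries. These groups were well apart, with a 1.47-fold fall (log2 fold change -0.55, SE 0.05, adjusted p = 2.09e-07 by edgeR). NUP153, the basket protein that anchors the others, measured 154 and 149 CPM against 126 and 122 CPM. It fell less, with a log2 fold change of -0.29 (SE 0.043, adjusted p = 4.26e-05 by edgeR).

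In the central channel, NUP62 (-0.36) and NUP98 fell and NUP54 (-0.09) did not pass, nor did NUP62CL (-0.11), a relative of NUP62. NUP98, a repeat protein of the permeability barrier, had 231 and 225 CPM in controls and 205 and 197 CPM in siRNA libraries. The groups did not overlap, and the log2 fold change was -0.18 (SE 0.04, adjusted p = 0.00131 by edgeR). Its adjusted p rose to 0.0912 with total counts alone and to 0.0694 without Control replicate 1. On the cytoplasmic side NUP88 fell (-0.28), a call lost in 1 of 12 alternative fits, and NUP214 (-0.06) did not pass. NUP214 also did not pass in 10 of 12 alternative fits. With the GC and length trend removed it was called lower, at a log2 fold change down to -0.15. NUP88 overlaps RPAIN on the opposite strand over 17.8% of its transcript. NUP62 overlaps other genes on its own strand over 19.1% and on the opposite strand over 15.7%. The genes that overlap NUP62 are AC011452.1, ATF5 and IL4I1. NUP210, a membrane protein of the pore, was the pore gene that rose. It measured 349 and 359 CPM in controls and 410 and 420 CPM in siRNA libraries, both higher. Its log2 fold change was 0.23 (SE 0.036, adjusted p = 7.51e-05 by edgeR), and 0.07 with an adjusted p of 0.0502 once trends on GC content and transcript length were taken out together with the replicate number as a block.

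Summed over each class, the deposited RPKM was lower in both siRNA libraries for all 4 classes. The pore genes summed to 433 and 431 RPKM in controls and to 409 and 403 in siRNA libraries. The import carriers summed to 401 and 388 against 337 and 331, and the export carriers to 160 and 157 against 131 and 127. The Ran cycle genes summed to 162 and 164 RPKM in controls and to 116 and 122 after the siRNA, the widest gap in proportion. Single abundant genes weigh heavily in these sums, which therefore do not measure a fall across a class. From controls to siRNA libraries, mean RPKM went from 68.5 to 36.0 for IPO7 and from 67.1 to 36.9 for KPNA2. It went from 55.2 to 27.8 for XPOT and from 65.4 to 40.5 for RAN. The import class also holds 3 genes that rose, and the export class 1. Of the members with the highest control RPKM, IPO7 (68.5) and KPNA2 (67.1) led, followed by RAN (65.4), KPNB1 (65.0) and XPOT (55.2). The most abundant members thus include 4 of the 5 that fell by 1.5-fold or more, NUP37 (20.9) being the other.

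The members with the largest falls shared the 7-base word GGCTATT. An earlier analysis singled the word out for its relation to falls in these same libraries. The split by the word described here is therefore no independent evidence. GGCTATT occurred in the transcript of 7 of the 47 tested members, XPOT, IPO7, KPNA2, NUP37, RAN, TNPO3 and KPNA5, on the transcript strand. The first 5 of these are the same genes as the 5 that fell by at least 1.5-fold. Of all genes with the word, 23.8% fell by as much, and of those without it 6.53%. TNPO3 (0.04) and KPNA5 (0.27), whose sites are printed with theirs, did not pass the threshold. The 7 members with the word had a median log2 fold change of -0.79. The 40 without it had a median of -0.19, and 22 of them fell, none by 1.5-fold. Among all tested genes with a transcript, 1595 (12.5%) held the word, 50.7% of these fell and their median was -0.22. In the 11202 genes without it, 28.5% fell and the median was 0.01.

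The word stood in the coding sequence of 6 of these members and in the 3' UTR of IPO7 and KPNA5 alone. Over all genes, the 812 with the word in the 3' UTR had a median log2 fold change of -0.33, with 60.3% falling, and the 724 with it in the coding sequence a median of -0.13, with 44.3% falling. Each of the 5 members that fell by 1.5-fold or more had a copy in the coding sequence, and IPO7 had a further one in the 3' UTR. The shifted word GCTATTA, which shares its first 6 bases with the last 6 of GGCTATT, occurred in 14 members, of which 8 fell, with a median of -0.19 against -0.24 in the 33 without it. Over all genes with a transcript, 48.0% of the 1499 with GCTATTA fell (median -0.18) and 29.01% of the others. The word CGGAGAA, examined for its relation to rises in the earlier analysis, occurred in 7 members, of which 3 fell and 2, KPNA6 and XPO7, rose, with a median of 0.01. Over all genes, 23.8% of the 1901 with CGGAGAA fell and 40.0% rose, with a median of 0.12. A match of letters is a description of the transcript, not a site of action.

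**Figure D4:**
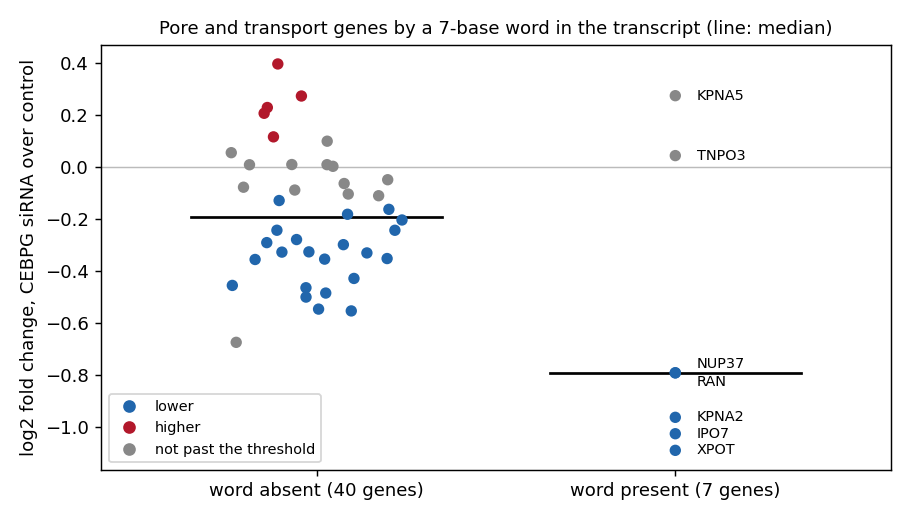
Log2 fold change (CEBPG siRNA over control) of the tested members without the 7-base word (40 genes) and with it (7 genes, named); each point is a gene, coloured by its call, and the line is the median of each group. The named genes split into 5 between -1.09 and -0.79 and 2 above 0. The word was chosen for its relation to falls in these same libraries.

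Promoters of the members gave small numbers of matches to motifs of the C/EBP and ATF families. RefSeq promoters of 300 bases (GRCh38.p14, 250 before to 50 after the start) were found for 42 of the 49 members and searched on both strands. The composite C/EBP-ATF motif TGATGNAA occurred in 1 of them, NUP153 (2.38%), and in 3.62% of all 35116 promoters. The C/EBP motif TTGCNNAA occurred in 3, NUP214, NUP35 and NUP98 (7.14%, against 10.5% of all promoters). The ATF/CREB motif TGACGTCA occurred in 2, NUP133 and NUP214 (4.76%, against 1.85%). For this motif alone the share was above that of all promoters, and the difference was not tested. The promoters of RAN, KPNA2, IPO7, XPOT and NUP37 held none of the 3 motifs within this window.

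Related genes outside the name rule showed larger single changes than any member. Of 12 other pore genes, 7 fell (58.3%, against 28.8% of all genes) and 1 rose (8.33%, against 25.5%), with a median log2 fold change of -0.31. The falls of NUPL2 and AHCTF1 each lost their call in 2 of 12 alternative fits. NUPL1, which encodes the channel protein NUP58, measured 177 and 168 CPM in controls and 54.2 and 52.8 CPM in siRNA libraries. The siRNA libraries were under 1 part in 3 of either control (log2 fold change -1.69, SE 0.049, adjusted p = 1.2e-12 by edgeR). SEH1L, an outer ring subunit, also fell (-0.83). GLE1, which works with an RNA helicase to release mRNA at the cytoplasmic side, had 62.9 and 65.2 CPM in controls and 149 and 145 CPM in siRNA libraries. It rose, with a log2 fold change of 1.196 (SE 0.048, adjusted p = 2.41e-11 by edgeR), and neither it nor NUPL1 or SEH1L holds the word GGCTATT.

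Other carriers and partners of Ran showed 4 falls and 4 rises among 12 genes and a median log2 fold change of -0.06, shares near those of all genes (28.8% and 25.5%). The fall of NUTF2 (-0.11) was lost in 8 of 12 alternative fits and the rise of NMD3 (0.14) in 6. RANBP6, an importin beta relative whose transcript holds the word, fell (-0.89), and so did RCC1 (-0.49), the exchange factor that loads GTP onto Ran on chromatin. RCC2 (0.44) and RANBP10 (0.43) rose. CSE1L, which returns importin alpha to the cytoplasm, had a log2 fold change of -0.04 and did not pass. Of 16 mRNA export genes, 7 fell (43.75%) and 3 rose (18.75%), with a median of -0.06. The falls of THOC1, NXT1 and DDX39B lost their calls in 7, 6 and 1 of 12 alternative fits, and the rise of THOC5 in 7. The helicase gene DDX39A (-0.76) and its partner ALYREF (-0.58) fell most, while THOC7 (0.35) and THOC2 (0.17) of the THO complex rose, THOC2 losing its call in 3 of 12 alternative fits. Of 9 genes of the lamina and inner nuclear membrane, 6 fell (66.7%) and 1 rose (11.1%), with a median of -0.23. The falls of LMNA and EMD lost their calls in 5 and 3 of 12 alternative fits. TMPO (-0.75) and LBR (-0.63), which tie chromatin to the envelope, fell most, and SUN2 (0.22) rose, a call lost in 6 of 12 alternative fits. The word GGCTATT occurred in 5 of these 49 related genes, and 2 of the 7 that fell by 1.5-fold or more held it.

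**Figure D5:**
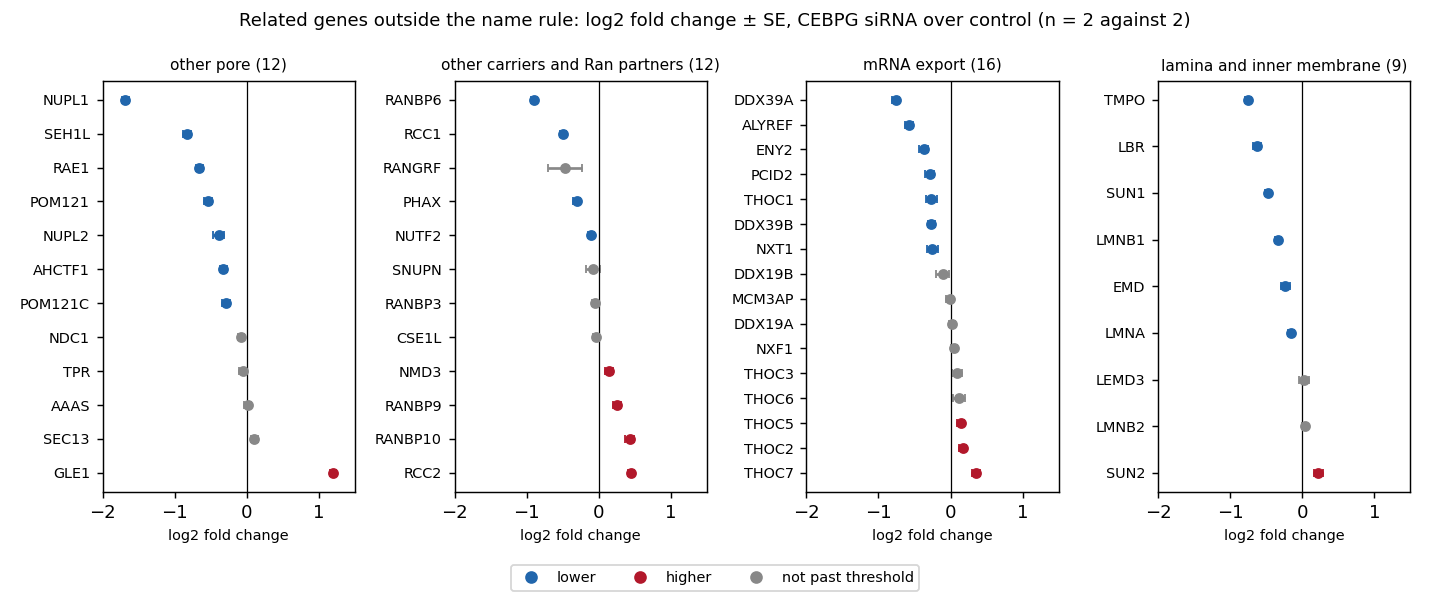
Log2 fold change (CEBPG siRNA over control) of 49 related genes outside the name rule, in 4 lists; points are estimates from 2 against 2 libraries, bars are 1 SE, blue and red mark genes past the threshold and grey those that did not pass. NUPL1 at -1.69 and GLE1 at 1.196 lie farthest from 0 in opposite directions.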

How the data were processed

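RNA-seq values of 4 KYSE150 libraries, 2 per group by the sample titles, were taken from the authors' deposited table. The submitters' processing notes name the hg19 build and the tools DESeq, RSEM 1.2.12, Bowtie2 2.2.5 and HISAT2 2.0.4, without saying what each did. The annotation and strand setting were not given in these sources. The deposited counts are whole numbers per gene, may be rounded estimates, and sum to at least 10 over the libraries for every gene listed. Per the file headers the authors also deposited RPKM per library, a mean normalized signal, a log2 fold change with its SE, a test score and p-values. Of the adjusted p-values, 4493 are listed as 1. No p-value or score of theirs entered a test here.

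Counts were fitted with edgeR 4.0.16 in R 4.3.3, over all genes passing filterByExpr (minimum count 10), with TMM factors, group as the only term and edgeR's quasi-likelihood F test, which is two-sided. P-values were adjusted by Benjamini-Hochberg over all 14207 genes tested, with a threshold of 0.05. CPM use TMM-corrected library sizes, and SDs are over n = 2 libraries. Alternatives were RLE, upper-quartile or total-count scaling, no filter, DESeq2 1.42.0, the replicate number as a block, a GC and length trend removed, and each library left out. The fit was also run on simulated counts drawn with the spread estimated from these libraries, with far fewer genes changed than were called here. Such a run does not measure how the fit performs on these data.

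Transcripts came from GENCODE 29 (GRCh38), with 1 transcript for 83.4% of the gene names, and were used for names and sequence only. Members and lists were chosen with earlier results of these data known. Named genes were 8 chosen whatever their result and, per class, up to 3 of the largest rises and falls among called genes with separate groups; in the other lists, 2 each way. Further genes given with a log2 value alone were chosen after their values were seen.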

Additional observations from a re-analysis of the deposited data

How the results depend on the processing

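The members that fell numbered 22 to 30 over the 12 alternative fits, against 27. With upper-quartile factors, where 31.9% of all genes rose and 23.9% fell, the members that rose were 9 of 47 (7 of them import carriers), the medians were -0.17 for all members, -0.15 for pore, -0.034 for import and -0.13 for export, and XPO1 had 0.021. With total counts alone 10 members rose (2 pore, 7 import), the medians were -0.14, -0.12, -0.0050 and -0.10 in the same order, and XPO1 (0.050) and NUP107 (0.021) turned positive. With no filter the medians were -0.26 for all members and -0.24 for pore, and with DESeq2 -0.23 for pore. With the GC and length trend removed, with or without the replicate block, 10 import carriers fell, against 7 in the main fit. With this trend removed the medians were -0.24 for pore and -0.23 for export. With the same trend removed and the replicate block they were -0.24 and -0.23, and 0 pore genes rose. The replicate block alone gave 28 falls and 5 rises. Libraries with the same number deviated with a correlation of 0.037 over 14207 genes. Counting noise enters this value in every gene, so it cannot decide whether libraries with the same number were handled together. With 1 library left out the median of all members ran from -0.26 to -0.22 and that of pore genes from -0.26 to -0.20, members that rose numbered 3 or 4, export genes that rose 0 or 1, and NUP107 had 0.0018 without siCEBPG replicate 2 and -0.16, past the threshold, without siCEBPG replicate 1. The lone library of a group was then assumed to vary like the others. The causes of these differences were not tested. Over named genes, 251 of the alternative values kept direction and call, 20 lost the call, 1 gained it and 4 turned. With 2 libraries per group, small changes near the threshold such as RANBP2 and IPO9 are the least certain.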
